A study of Mus musculus with 2 samples.

Results

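The snoRNAs of the U3, U8, U13, U14 and U17 families act in the processing of the ribosomal RNA precursor, and 84 of the 37310 genes of GENCODE release M1, which annotates the mouse genome mm9, carry their names. They were taken by type (snoRNA) and name: 47 genes are named U3, 5 are U8 copies including *Snord118*, 26 are U13 copies including *Snord13*, 4 are *Snord14* genes with a letter (U14), and *Snora73a* and *Snora73b* form the U17 family. All 1552 snoRNA genes of the annotation include 13 others named SNORA73 with no letter, which were counted apart, and 1455 more. Measured was the non-polyadenylated (NPA) RNA of R1 embryonic stem cells (ESCs), a male mouse line at passage 18, and of neuronal progenitor cells (NPCs) derived from the same line. The ESCs grew with LIF on Mitomycin C treated embryonic fibroblasts, and the NPCs were collected on day 7, after 4 days as embryoid bodies without LIF and then a culture on poly-L-ornithine and fibronectin. The data are 1 strand-specific SOLiD library per cell type, with 4271306 placed reads in ESCs and 4399729 in NPCs. No test between the cell types was therefore possible, intervals cover counting error only, and each ratio compares these libraries. Counts were scaled by the placed reads of each library to RPM, so that 1 read is worth 0.234 RPM in ESCs and 0.227 RPM in NPCs.

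In the nucleolus, snoRNAs work as ribonucleoprotein particles. Most guide the modification of single nucleotides, but U3, U14 and U17 are needed for the cleavages that free 18S rRNA, and U8 is needed for 5.8S and 28S rRNA. U13 pairs with 18S rRNA and guides its acetylation by Nat10, so that "cutting" holds for U13 only in the loose sense of belonging to the same maturation pathway. U3, U8, U13 and U14 are C/D box snoRNAs, marked by the box motifs TGATGA and CTGA. U17 is an H/ACA snoRNA and ends with an ACA box 3 bases before its 3′ end. U3, U8 and U13 are transcribed from promoters of their own, as longer precursors that are then trimmed at the 3′ end, whereas U14 and U17 are cut out of introns of host genes.

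The sequences below, read from mm9, show 1 complete gene of the U3, U8 and U14 families and both U17 members, since the reads at the gene ends are described by position on them. In the C/D box genes the first TGATGA and the last CTGA are in capitals, and in the U17 genes the last ACA. The U3 sequence is shared base for base by 4 genes of chromosome 11. *Snord118* lies at chr11:68886929-68887063 and *Snord14e* at chr9:40612831-40612920, both on the plus strand. *Snora73a* (chr4:131908690-131908894) and *Snora73b* (chr4:131908237-131908441) lie on the minus strand.
U3, chromosome 11: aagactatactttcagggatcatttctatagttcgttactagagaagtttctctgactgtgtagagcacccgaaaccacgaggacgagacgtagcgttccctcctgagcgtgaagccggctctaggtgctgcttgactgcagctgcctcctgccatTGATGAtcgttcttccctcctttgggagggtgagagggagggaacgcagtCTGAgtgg
Snord118 (U8): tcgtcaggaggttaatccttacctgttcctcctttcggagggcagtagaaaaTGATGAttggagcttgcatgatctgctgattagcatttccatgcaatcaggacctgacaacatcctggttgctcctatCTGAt
Snord14e (U14): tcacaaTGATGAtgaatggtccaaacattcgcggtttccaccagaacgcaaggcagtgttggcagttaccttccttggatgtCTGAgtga
Snora73a (U17): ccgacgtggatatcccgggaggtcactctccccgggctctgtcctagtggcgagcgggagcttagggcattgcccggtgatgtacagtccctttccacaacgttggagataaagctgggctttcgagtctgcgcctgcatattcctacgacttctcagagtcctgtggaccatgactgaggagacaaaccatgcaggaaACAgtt
Snora73b (U17): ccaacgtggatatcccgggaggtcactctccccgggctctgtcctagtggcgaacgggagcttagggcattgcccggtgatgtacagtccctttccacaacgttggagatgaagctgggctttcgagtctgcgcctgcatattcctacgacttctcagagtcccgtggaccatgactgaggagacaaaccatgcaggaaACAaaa

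Most members are incomplete copies. TGATGA and CTGA, searched on the gene strand, were both present in 10 of the 47 U3 genes, 2 of the 5 U8 genes, 3 of the 26 U13 genes and all 4 U14 genes, and in 22.6% of the 1468 snoRNA genes outside the families. Those 1468 genes mix the C/D and H/ACA classes, and 281 of them have ACA 3 bases before the 3′ end, so that share is not one of C/D genes. Identity to the sequences above fell as low as 39.3% among the U3 genes, 9 of which reached 90% or more. The 4 identical U3 genes of 214 bases are at chr11:87256739-87256952, chr11:87262129-87262342, chr11:87275788-87276001 and chr11:87284870-87285083 and are called copies 1 to 4. All lie on the plus strand within the span of the testis gene *Tex14*, outside its exons. No window of 48 bases, the length of a deposited read, occurs once in the genome within any of them. Over the whole family 57.8% of such windows are unique, against 91.9% for U8, 100% for U13 and U14, and 89.2% for U17.

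The bodies of these genes are nearly empty in the deposited data. By reads on the strand of the gene, U17 had 157 reads in ESCs (36.8 RPM, exact Poisson 95% interval 31.2 to 43.0) and 61 in NPCs (13.9 RPM, 10.6 to 17.8). U3 had 1 read in ESCs and 0 in NPCs over all 47 genes, and U8, U13 and U14 had 0 in both libraries. A count of 0 allows up to 3 reads, or 0.702 RPM in ESCs and 0.682 RPM in NPCs, as a 1-sided limit, while the 2-sided exact Poisson interval reaches 3.69 reads. In the counts of 0, low abundance and reads removed by a filter cannot be told apart. The study removed reads in Repeat Masker regions, and all 158 member reads in ESCs and all 61 in NPCs were placements shortened below the 48 bases of their own sequence, against 0.151% and 0.214% of the reads on the 1455 other snoRNA genes. Apart from the U3 read, the shortened placements at the members broke off within 3 bases of an end of the gene, and those of U17 covered 5 of its 410 bases. How many reads were removed, and from which bases, cannot be measured from these files. *Snord13* had no shortened placement. The U3 gene ENSMUSG00000088309.1 had 2 placements in each library on the opposite strand, covering 47 of its bases, and 0 on its own strand. The 48 bases of each shortened read were still given, so the full read could be laid back on the genome, and reads that run across an end of a gene show RNA from the member and its flank together.

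**Figure D1:**
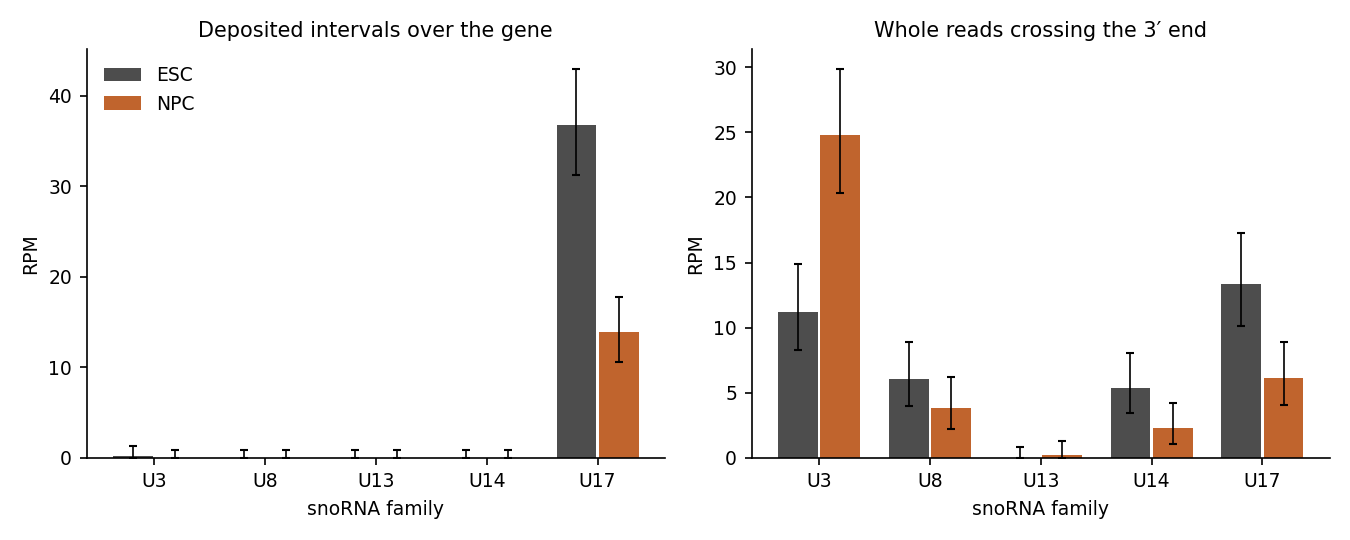
Reads of the 5 snoRNA families in RPM in ESCs and NPCs, with exact Poisson 95% intervals as bars (1 library per cell type). On the left are the placements as deposited, in which only U17 stands clear of 0 (36.8 and 13.9 RPM). On the right are the full 48-base reads crossing the 3′ end, in which U3 is higher in NPCs (11.2 and 24.8 RPM). How much of the genes of each family was filtered is not known, so bars of different families are not comparable.

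U3 RNA reaching past the 3′ end of the gene was more abundant in the NPC library. Over the 47 genes, 48 full reads crossed a 3′ end in ESCs (11.2 RPM, interval 8.29 to 14.9) and 109 in NPCs (24.8 RPM, 20.3 to 29.9), a ratio of NPC to ESC of 2.21 (conditional binomial 95% interval 1.56 to 3.16). On the log2 scale this is 1.14 (0.64 to 1.66), whereas the median of the 14859 genes with at least 10 reads was 0.34. Reads wholly within 200 bases past the end numbered 11 in ESCs and 41 in NPCs, a log2 ratio of 1.86 (0.87 to 2.96). The difference depends on counting repeated reads: the crossing reads began at 19 distinct positions in ESCs and 20 in NPCs. Scaled by all distinct start positions of each library (1531216 in ESCs and 1848069 in NPCs), not by placed reads, the log2 ratio was -0.20. The numbers of positions were thus nearly equal, and the negative sign comes from that scaling. PCR copies and abundant RNA cannot be told apart here. Of the crossing reads, 40 in ESCs and 103 in NPCs have a sequence found once in mm9.

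The reads came from 5 of the 47 U3 genes, the 4 identical copies and a gene of 212 bases on chromosome 10 (ENSMUSG00000065870.1). Copy 2 (ENSMUSG00000070243.1) had the most, with 23 reads crossing its 3′ end in ESCs and 61 in NPCs, a log2 ratio of 1.36 (0.65 to 2.12). Copy 1 (ENSMUSG00000070251.1) had 12 and 33, a log2 ratio of 1.42 (0.43 to 2.51). Copy 4 (ENSMUSG00000070168.1) had 8 and 6, with an interval of -2.26 to 1.26. The gene on chromosome 10 had 4 and 7 (-1.21 to 2.98), and copy 3 (ENSMUSG00000070190.1) had 1 and 2, with 2 and 11 reads further downstream. Most crossing reads in both libraries thus belonged to copies 1 and 2, and without copy 2 the log2 ratio of the crossing reads was 0.90, from 25 reads in ESCs and 48 in NPCs.

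**Figure D2:**
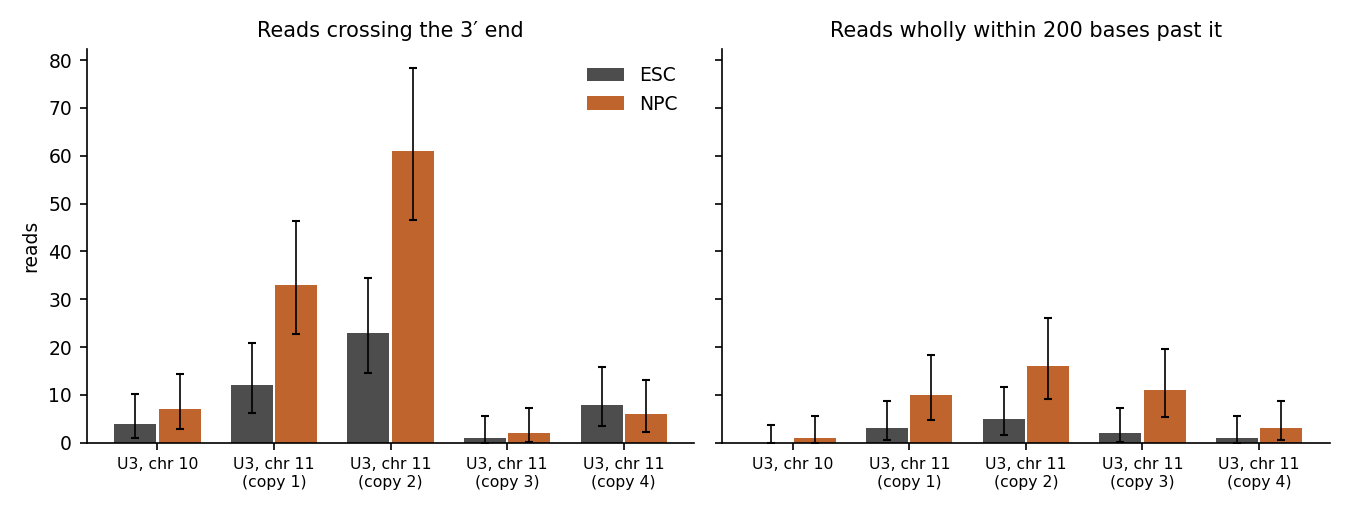
Reads at the 5 U3 genes that have any, in ESCs and NPCs, with exact Poisson 95% intervals; full reads crossing the 3′ end are on the left, reads wholly within 200 bases past it on the right. Copies 1 and 2 have more crossing reads in NPCs (33 and 61) than in ESCs (12 and 23), and copy 4 does not (6 and 8).

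The genes can be told apart in most crossing reads because their sequences diverge soon after the end of the gene. The following stretches give the last 48 bases of the gene in lower case and the 60 bases after it in capitals, for each U3 gene with at least 4 crossing reads and for *Snord118*. Among the copies of chromosome 11 the 60 bases agree at 24 to 28 positions, except for copies 3 and 4, which agree at 51. Of the reads crossing the end of copy 4, 4 of 8 in ESCs and 3 of 6 in NPCs are unique in mm9. The others occur more than once or without an exact match, so their assignment to copy 4 is less sure.
U3, chromosome 10, chr10:39978437-39978544: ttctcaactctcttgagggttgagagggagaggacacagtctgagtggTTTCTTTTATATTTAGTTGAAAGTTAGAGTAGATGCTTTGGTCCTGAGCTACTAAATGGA
U3 copy 1, chr11:87256905-87257012: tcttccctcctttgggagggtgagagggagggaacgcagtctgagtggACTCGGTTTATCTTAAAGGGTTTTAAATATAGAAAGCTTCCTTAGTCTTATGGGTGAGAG
U3 copy 2, chr11:87262295-87262402: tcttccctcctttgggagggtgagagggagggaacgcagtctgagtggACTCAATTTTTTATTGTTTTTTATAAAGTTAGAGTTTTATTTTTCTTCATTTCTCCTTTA
U3 copy 4, chr11:87285036-87285143: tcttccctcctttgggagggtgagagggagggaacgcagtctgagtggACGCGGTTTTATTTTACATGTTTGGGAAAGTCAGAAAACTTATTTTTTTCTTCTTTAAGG
Snord118, chr11:68887016-68887123: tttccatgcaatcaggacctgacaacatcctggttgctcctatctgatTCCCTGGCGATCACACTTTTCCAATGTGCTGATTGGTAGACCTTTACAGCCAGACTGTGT

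Within the 4 identical copies, base 199 of 214 was the start used most often, with 19 of 44 crossing reads in ESCs and 58 of 102 in NPCs. Such a read holds the last 16 bases of U3 and ends 32 bases past the gene. Reads have a fixed length, so this is not the end of the RNA. Bases 200 and 204 followed, with 7 and 8 reads in ESCs and 17 and 13 in NPCs, while base 205 had 5 and 3 and base 213 had 1 and 5. Bases 199, 200 and 204 were the leading positions in both libraries. The letters AAANNNAGA, part of the 3′ box that directs the formation of 3′ ends at genes of spliceosomal snRNAs, begin 20 to 27 bases past the end in all 5 U3 genes with crossing reads. On the gene strand these letters occur in the first 60 bases after 11 of the 47 U3 genes and after 164 of all 1552 snoRNA genes (10.6%), and they are not in that window of *Snord118*. The letters were chosen after the sequences had been seen, and a match is no evidence of use.

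Past the 5 U3 genes, unshortened placements became rare after 200 bases in both libraries. Those beginning in the first 50 bases numbered 2 in ESCs and 13 in NPCs, and those from 50 to 100 bases numbered 4 and 15. From 100 to 200 bases there were 10 and 20, from 200 to 500 bases 2 and 5, and from 500 to 1000 bases 0 and 3. On the other side of the genes, the 200 bases before the 5′ end had 2 placements in ESCs and 0 in NPCs. From 200 to 500 bases before it there were 5 and 0, and from 500 to 1000 bases 2 and 2. Beyond 200 bases the ESC library thus had more placements ahead of the genes than past them. The exons of *Tex14* had 60 reads in ESCs and 25 in NPCs.

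**Figure D3:**
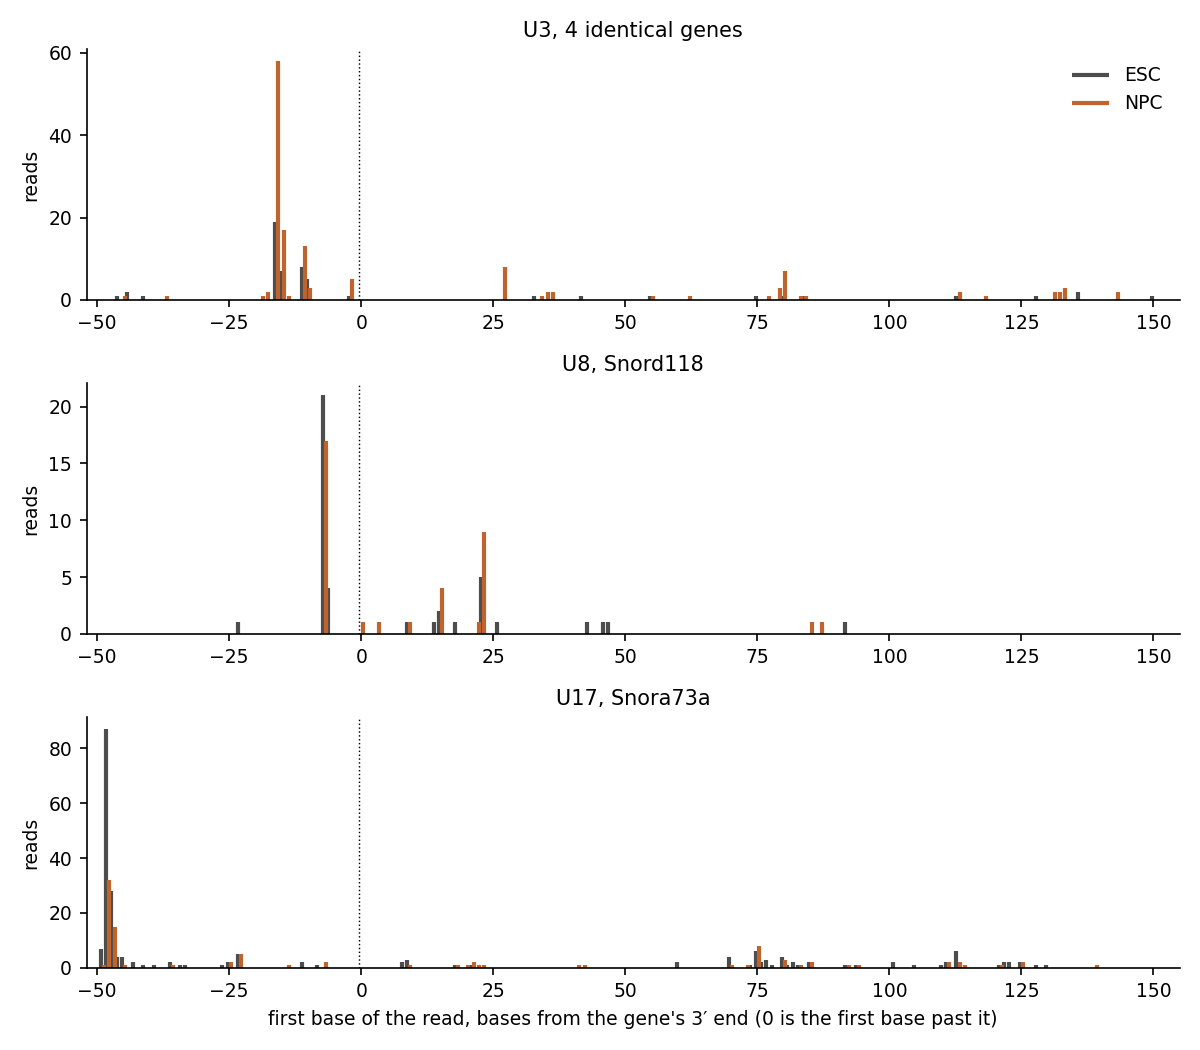
First base of each full read near the 3′ end of the 4 identical U3 genes, of *Snord118* and of *Snora73a*, as reads (vertical axis) by distance in bases from the end of the gene (horizontal axis, 0 is the first base past it, dotted line), in ESCs and NPCs. U3 reads gather 16 bases before the end (19 and 58 reads), U8 reads 7 bases before it (21 and 17), and *Snora73a* reads 48 bases before it (87 and 32), which is the last start that leaves the whole read inside the gene.

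U8, which acts on the large-subunit rRNAs, was seen only at *Snord118* (ENSMUSG00000064899.1), and its tails did not differ beyond counting error. Full reads crossing the 3′ end numbered 26 in ESCs (6.09 RPM) and 17 in NPCs (3.86 RPM), a log2 ratio of -0.66 with an interval of -1.63 to 0.28. Reads wholly within 200 bases past the end numbered 15 and 19 (-0.76 to 1.38). In both libraries most crossing reads began at base 129 of 135, with 21 reads in ESCs and 17 in NPCs, and ended 41 bases past the gene. All 43 were unique in mm9. The gene had 0 reads crossing its 5′ end and 0 in the 200 bases before it. The 4 other U8 genes, 1 of them within *Cs*, had 0 reads inside or across an end.

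U13 gave almost nothing. *Snord13* (ENSMUSG00000088252.1), the complete gene, had 1 read in ESCs within 200 bases past its 3′ end and 0 in NPCs. Among the 25 other U13 genes, 2 reads in ESCs crossed a 5′ end and 1 in NPCs crossed a 3′ end. U13 could not be measured from these reads.

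The U14 genes lie in introns of *Rps13*, a ribosomal protein gene (*Snord14a*), and of *Hspa8*, a heat shock cognate gene (*Snord14c*, *Snord14d* and *Snord14e*). Full reads crossing a U14 5′ end numbered 14 in ESCs and 18 in NPCs, and those crossing a 3′ end 23 and 10. The log2 ratio was 0.32 (-0.77 to 1.44) at the 5′ ends and -1.24 (-2.48 to -0.12) at the 3′ ends. With each start position counted once, the 3′ ends had 11 starts in ESCs and 10 in NPCs, a log2 ratio of -0.41 when scaled by distinct start positions. Such reads hold intron sequence next to the snoRNA, and uncut host RNA and partly trimmed snoRNA cannot be told apart in them. No gene had more than 8 in a library at 1 end. At the 3′ end of *Snord14a* there were 7 reads in ESCs and 1 in NPCs. Only 2 reads in each library ran 20 or more bases past a U14 3′ end. The exons of *Hspa8* had 7971 reads in ESCs and 9596 in NPCs (log2 ratio 0.22), and those of *Rps13* had 98 and 59 (-0.77).

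U17, the H/ACA member of the set, was lower in the NPC library. By the deposited placements the family had 36.8 RPM in ESCs and 13.9 in NPCs, a log2 ratio of -1.41 (-1.86 to -0.97), and with only reads whose 48 bases are unique it had 142 reads in ESCs and 56 in NPCs. *Snora73a* (ENSMUSG00000064387.1) gave 149 of the reads in ESCs and 60 of those in NPCs, a log2 ratio of -1.36 (-1.81 to -0.91). *Snora73b* (ENSMUSG00000065353.1) had 8 and 1, a ratio of 0.121 with a wide interval of 0.00274 to 0.905. Both members thus gave fewer reads in NPCs. As full reads the family had 238 reads in ESCs and 86 in NPCs, of which 81 and 25 crossed a 5′ end. The reads of *Snora73a* rest on its last 2 bases: 87 reads in ESCs and 32 in NPCs ended exactly at the annotated end, 7 and 1 ended 1 base short of it, and 55 and 27 crossed it. Reads that would end earlier are absent. An annotated exon of the host gene *Snhg3* covers the 3′ part of *Snora73a* and runs on past its end, so reads of the snoRNA and of that exon cannot be told apart there. *Snora73b* was seen mostly from its other side, with 75 full reads in ESCs and 23 in NPCs across the 5′ end (log2 ratio -1.75, interval -2.49 to -1.06). Such reads also hold host sequence ahead of the gene, so uncut host RNA and snoRNA cannot be told apart in them. Reads wholly within the 200 bases before *Snora73b* numbered 90 in ESCs and 48 in NPCs (-0.95, interval -1.49 to -0.43). Before *Snora73a* they went the other way, with 30 and 51 (0.72, interval 0.04 to 1.42).

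*Snora73a* was the only member with at least 10 reads, and it was more than 2-fold lower in NPCs. Of the 14859 genes with at least 10 reads, 12.8% were more than 2-fold lower in NPCs and 24.6% more than 2-fold higher. Of the 353 other snoRNA genes with at least 10 reads, 43.9% were more than 2-fold lower and 4.53% more than 2-fold higher, with a median log2 ratio of -0.83. A ratio of this size was thus common among the other snoRNAs. For reads running 20 or more bases past a 3′ end, 6 members had at least 10, of which 2, U3 copies 1 and 2, were more than 2-fold higher in NPCs and 0 more than 2-fold lower. Among the 15 other snoRNA genes with as many such reads, 13.3% were more than 2-fold higher and 20% more than 2-fold lower. All 1455 other snoRNA genes together gave 385 (ESCs) and 341 (NPCs) such reads, whereas the U3 genes gave 43 and 107.

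Close to U17 stands a gene that the names leave out. A SNORA73 gene with no letter (ENSMUSG00000064380.1, chr9:120038469-120038671, plus strand) lies in an intron of *Rpsa*, a ribosomal protein gene, and is 88.4% identical to *Snora73a*. Its last ACA, in capitals, is also 3 bases before the end.
SNORA73, chromosome 9: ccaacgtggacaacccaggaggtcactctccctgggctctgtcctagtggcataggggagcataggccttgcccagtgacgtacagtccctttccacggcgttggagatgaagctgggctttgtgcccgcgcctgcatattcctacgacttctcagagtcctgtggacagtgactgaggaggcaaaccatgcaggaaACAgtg
It had 109 reads in ESCs and 20 in NPCs, a log2 ratio of -2.49 (-3.26 to -1.79), and 93 and 17 of them ended at the last base of the gene. *Rpsa* exons had 2019 and 1110 reads (log2 ratio -0.91). *Snhg3*, the noncoding host of *Snora73a* and *Snora73b*, had 170 exon reads in ESCs and 148 in NPCs outside snoRNA genes (-0.24, interval of the ratio without an added read -0.57 to 0.08). *Rcc1*, whose span also holds the pair, had 141 and 124 (-0.23). The ratio of *Snora73a* lay below those of both its hosts. The *Snhg3* value leaves out 149 exon reads in ESCs and 60 in NPCs that lie on snoRNA genes, as many as *Snora73a* had. With them it would be -0.66, so the contrast sets 1 part of the *Snhg3* exons against the rest. The hosts of members with no reads in the gene were also counted. *Cs* had 1222 exon reads in ESCs and 1308 in NPCs, *Yars* 506 and 666, *Fry* 130 and 30, and *Atp6v0a4* 90 and 42. *Rabepk* had 75 and 42, *Spats2l* 6 and 43, *Tmem62* 1 and 45, *Nek5* 4 and 0, *Gm11775* 0 and 1, and *Slc9a4* 0 in both.

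Proteins that work with these snoRNAs did not move as 1 group. Their genes were counted by exon reads that touch no snoRNA gene. The small-subunit processome is the large particle in which U3 sits on the precursor. All 32 of its listed genes had at least 10 exon reads, 4 were more than 2-fold higher in NPCs, 0 more than 2-fold lower, and the median log2 ratio was 0.47 beside 0.34 over all genes. Over all genes with as many reads, 24.6% were more than 2-fold higher and 12.8% lower, so both counts lay below the general share. *Heatr1* had the most reads, 955 in ESCs and 1090 in NPCs (0.15), followed by *Utp20* with 382 and 639 (0.70). The largest ratios among genes with at least 100 reads were those of *Wdr46* (29 and 83, 1.44) and *Dhx37* (95 and 239, 1.28), the helicase that releases U3 from the particle. *Rrp9*, the protein that binds U3 itself, is named for this role and not by its values; it had 196 and 131 reads (-0.62).

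Of the 8 core proteins, which all snoRNAs of a class share, 1 was more than 2-fold higher and 1 more than 2-fold lower, with a median of 0.04. *Nop56*, a C/D protein, had 667 reads in ESCs and 832 in NPCs (0.28). With the 3224 and 2302 reads on snoRNA genes that annotated exons of *Nop56* also cover, its log2 ratio would be -0.35. *Nop58*, its partner, had 340 and 737 (1.07). *Nop10*, an H/ACA protein, had 195 and 85 (-1.23). Of the 11 factors for promoters, caps and export of independently transcribed snoRNAs, 2 were more than 2-fold higher and 0 lower, with a median of 0.47. The cap-binding genes *Ncbp1* (273 and 438 reads, 0.64) and *Ncbp2* (38 and 152, 1.93) are among them, with *Tgs1*, which adds methyl groups to the cap (217 and 246, 0.14), and *Snapc2*, a promoter-binding subunit (43 and 75, 0.75). Of the listed partners of U8 and U13, where *Thumpd1* stands only as a partner of Nat10, 9 of 10 were found under their names and had at least 10 reads. Their median was 0.54, with 1 more than 2-fold higher and 0 lower. The gene past 2-fold was *Lsm7*, with only 6 reads in ESCs and 17 in NPCs (1.32). Over all genes with at least 10 reads, 24.6% were more than 2-fold higher and 12.8% lower, the shares to set beside the counts of each list here. *Thumpd1*, a partner of Nat10, had 171 and 232 reads (0.40), *Lsm3* 115 and 173 (0.54), *Lsm6* 35 and 69 (0.92), and *Ddx51*, a helicase acting with U8, 68 and 141 (1.00).

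**Figure D4:**
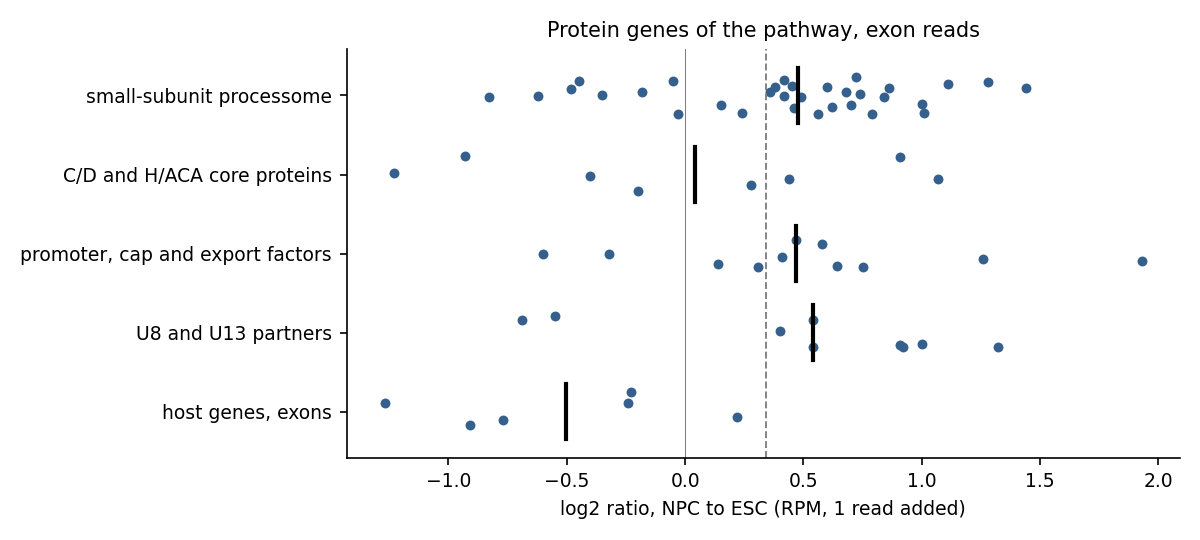
Log2 ratio of NPC to ESC in RPM, with 1 read added, for protein genes of the pathway and host genes with at least 10 exon reads; each point is a gene, the black bar the median of its list and the dashed line the median of all genes (0.34). The medians of the processome (0.47), the factors (0.47) and the U8 and U13 partners (0.54) lie near the dashed line, those of the core proteins (0.04) and host genes (-0.50) below it.

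The NPC library held few reads of neural genes and many of another lineage. All 7 pluripotency genes were lower in NPCs (9071 reads in ESCs and 2400 in NPCs in sum), yet none reached 0. Of 7 neural progenitor genes, 6 were found and held 166 reads in ESCs and 202 in NPCs. The 7 markers of extraembryonic endoderm summed to 1365 reads in the ESC library and 33430 in the NPC library, each of them more than 2-fold higher. Fibroblast markers, which the feeder cells would bring, had 180 and 252 reads over 5 genes. They did not move together: 4 were higher in NPCs and 1 lower, with 51 and 165 reads for *Col1a2* and 79 and 12 for *Thy1*. The part of these cells in the U3 and U17 differences was not tested, and in bulk RNA fewer cells of a type and less RNA per cell cannot be told apart.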

How the data were processed

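The deposited files list 1 placed read per line (chromosome, start, end, strand, 48 bases of sequence). Per the study's methods, the authors aligned SOLiD reads to mm9 (Bowtie, 1 placement kept for a read with several) and removed mitochondrial, ribosomal and Repeat Masker reads. Placements were counted on the strand of a gene where they overlapped its exons by at least 1 base, leaving out, for protein and host genes, reads on snoRNA genes. Shortened reads were laid back at the offset with fewest mismatches, and both of these steps were added after the data had been seen. Reads and gene windows were searched on both strands of mm9. With 1 library per cell type no test was made. Counts have exact Poisson 95% intervals and ratios conditional binomial ones. Ratios over lists of genes add 1 read. Named were members and host genes with their reads, and from each list the 2 genes with the most reads and the 2 with the largest ratios among those with at least 100 reads. *Rrp9* was added. The U13 sequence is not reported here. Members and lists were chosen with earlier results of these data known. Scripts were tested on simulated reads and used Python 3.11.15, NumPy 2.4.6, SciPy 1.17.1 and pysam 0.24.0.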

Additional observations from a re-analysis of the deposited data

How the results depend on the processing

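For U17 the log2 ratio of NPC to ESC ranged from -1.75 (scaled by the median of ratios over genes) to -1.20 (each start position once) over 8 alternatives, all within the interval of the reported value. Of these, requiring the 5′ end inside the gene had to return the same 157 and 61 reads, since all U17 placements begin in its last bases. Adding 1 read could change little at such counts, so neither is a separate check. Requiring 24 bases of overlap left 0 reads in every family, and for U3, U8, U13 and U14 the counts by the rule were too low for a ratio. With genes widened by 20 bases at each end, the log2 ratio was 1.05 for U3 (51 and 109 reads), -0.41 for U8 (31 and 24) and -0.41 for U14 (40 and 31). The alternatives for reads crossing a 3′ end were chosen after seeing the data. For U3 the log2 ratio was 1.32 with unique reads, and 0.80 to 1.12 under other scalings or with 1 read added. It was 0.90 without the gene with the most reads, but -0.20 with each start position counted once. All counts of start positions were scaled by the distinct start positions of each library, not by placed reads. The cause of the repeated starts was not tested. For U8 it ranged from -0.99 to -0.63 and for U14 from -1.58 to -0.41, and the 3 and 1 distinct starts of U8 give no ratio. With exon reads on snoRNA genes counted in, the log2 ratio of *Nop56* turned from 0.28 to -0.35, and that of *Snhg3* moved from -0.24 to -0.66. The counts of members more than 2-fold lower (1) and higher (0) did not change. Few reads cross the ends of the U13 genes and U3 copy 3, so no ratio is given for them. Reads inside repeat regions are missing, so the ratio of extended to mature RNA cannot be measured. No paired analysis was possible because there is 1 library per cell type.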
